A study of Homo sapiens with 6 samples.

Results

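The 10 genes described here encode glycolysis enzymes, namely HK2, GPI, PFKL, ALDOA, TPI1, GAPDH, PGK1, ENO1, PKM and LDHA. They were taken by symbol from the 25420 annotated genes, and each had 1 annotated 3′ UTR entry among 58136. All 10 passed the filter on low counts in every readout. The libraries came from MOLM-13, an established human cell line of acute myeloid leukaemia. The cells received either 10 µM C646, an inhibitor of the lysine acetyltransferases CBP and p300, or its solvent DMSO. Treatment lasted 2 h, and all cells, controls included, were given 100 µM 4-thiouridine (4sU) for the last 60 min. Each group had 3 libraries from a single cell line, the labels do not say whether these were separate cultures, and p-values therefore measure only the spread between these libraries.

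In SLAM-seq, incorporated 4sU is alkylated, so that RNA made during the labelling carries T > C conversions in its sequence reads. Reads counted as T > C reads in the tables stand for new RNA, all reads stand for the total mRNA of the gene, and the share of T > C reads describes how much of an mRNA was renewed during the labelling. No library of cells without 4sU was analysed here, so the share that arises without label is not known. The T > C reads were taken to be reads with at least 1 conversion. Of 1059 entries with a single T > C read in DMSO replicate 1, 659 held no more than 1 conversion. These counts do not settle the threshold, since GAPDH had fewer conversions than T > C reads in C646 replicates 1 and 3. The study's own test asked for more conversions per read, so on that reading T > C values here rest on a looser definition. Reads on 3′ UTRs numbered 7252597 to 10225448 per library and T > C reads 477824 to 833410. The T > C share of a whole library was 8.74 to 8.86% in DMSO and 6.34 to 6.71% in C646. All 15 myeloid markers reached at least 1 CPM (reads per 1000000 reads on 3′ UTRs, totals scaled by TMM) in every library, while the summed markers of T cells, B cells and erythroid cells each stayed below 4 CPM. The 8 stromal or epithelial markers, of which COL1A2, COL3A1, KRT19 and CDH1 were at 0, summed to 4.58 to 8.43 CPM in DMSO and 8.73 to 11.4 CPM in C646, and their part in the results was not tested.

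Glycolysis splits glucose into pyruvate in the cytosol. Hexokinase, phosphoglucose isomerase, phosphofructokinase and aldolase prepare and cleave the sugar, and triose phosphate isomerase links both products of that cleavage. GAPDH, phosphoglycerate kinase, phosphoglycerate mutase, enolase and pyruvate kinase form the branch that returns ATP, and lactate dehydrogenase turns pyruvate into lactate to regenerate NAD+. Rapidly dividing leukaemia cells are known for high glycolytic flux, and the genes of the pathway are well known targets of MYC and of the hypoxia-inducible factors, both of which bind DNA at sites that can hold ACGTG.

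Those letters were looked up in the RefSeq promoters of the 10 genes (GRCh38.p14, 250 bases before to 50 after each start, 15 promoters, all 10 genes matched). Windows of 30 bases around a match are shown for HK2 and LDHA, which had the highest shares of T > C reads in DMSO, for GAPDH, the most abundant of the 10 mRNAs, and for PGK1, the only gene of the 10 whose T > C reads were higher in every C646 library. Capitals mark ACGTG or the same letters read from the other strand, CACGT, which overlap in CACGTG.
HK2, chr2:74833885-74833914, + strand, -242 to -213 from the start: tagccacggaccaCACGTcccatctcaggc
GAPDH, chr12:6535171-6535200, + strand, -93 to -64 from the start: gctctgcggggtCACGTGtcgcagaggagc
PGK1, chrX:78104043-78104072, + strand, -205 to -176 from the start: cggACGTGacaaacggaagccgCACGTctc
LDHA, chr11:18394470-18394499, + strand, -93 to -64 from the start: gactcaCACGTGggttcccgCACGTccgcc
Counted on both strands, 7 of the 10 genes held ACGTG (HK2, GPI, ALDOA, TPI1, GAPDH, PGK1 and LDHA) in at least 1 promoter, against 24.9% of the 27305 genes with a promoter in the table, and 4 held CACGTG (HK2, ALDOA, GAPDH and LDHA) against 8.77% of genes. Per promoter, 10 of the 15 held ACGTG and 4 held CACGTG, against 21.4% and 7.26% of all 35116 promoters of the same length. The heat shock element, searched by its consensus, was found in none of the 10 genes and in 0.608% of all genes (0.490% of promoters). TGACNNNGC, the core of the antioxidant response element, stood in PFKL, GAPDH and PKM and in 16.1% of all genes (13.3% of promoters). A match is only a stretch of letters, and binding was not measured here. The reads themselves were counted on the 3′ UTRs, which for these genes lie at chr2:74890942-74893354 (HK2), chr12:6538171-6538375 (GAPDH), chrX:78125831-78126827 (PGK1) and chr11:18407133-18408218 (LDHA) in GRCh38, all on the + strand.

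In DMSO the mRNAs differed in abundance from 4692 ± 405 CPM (SD, n = 3) for GAPDH to 42.4 ± 13.1 CPM for HK2. With a single 3′ end read per transcript, these CPM were compared between genes without a correction for length. ENO1 (3599 ± 285 CPM), PKM (2325 ± 356) and ALDOA (1004 ± 144) followed GAPDH, then LDHA (663 ± 170), GPI (622 ± 75.3), TPI1 (523 ± 54.7), PGK1 (500 ± 48.5) and PFKL (159 ± 31.3). Each of these 9 mRNAs ranked above at least 86.9% of genes, whereas HK2 ranked above 54.3%. Together the 10 genes gave 1.42% ± 0.0639 of all reads in DMSO (SD, n = 3) but only 0.608% ± 0.0281 of T > C reads.

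Most of these mRNAs had low T > C shares in the control cells. The T > C share in DMSO was between 2.43% and 3.99% for 8 of the 10 genes, which placed each of them above no more than 9.004% of the 8607 genes with at least 50 reads per library, whose median share was 11.6%. HK2, a hexokinase, which traps glucose in the cell as glucose phosphate, stood apart. Its share was 22.2, 28.2 and 18.3% in the 3 DMSO libraries (mean 22.9% ± 5.00, SD, n = 3), above 80.8% of genes. LDHA, the muscle-type subunit of lactate dehydrogenase, came next with 7.34, 7.80 and 7.74% (mean 7.63% ± 0.248), above 29.8% of genes. Among genes with at least 500 reads per library, LDHA lay above 46.6%, GAPDH above 14.3%, TPI1 above 14.2% and ENO1 above 13.7%. The libraries of HK2 and LDHA did not overlap, nor did those of LDHA and GAPDH.

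Below LDHA the order was less clear. GAPDH (3.99% ± 0.163), TPI1 (3.99% ± 0.346) and ENO1 (3.91% ± 0.0810) overlapped as neighbours and so could not be ordered. ENO1 lay above PGK1 (3.27% ± 0.563) in every library, and from PGK1 down through ALDOA (2.85% ± 0.321), PKM (2.57% ± 0.217), GPI (2.50% ± 0.299) and PFKL (2.43% ± 0.530) each neighbour overlapped the next. The share depends on how many T positions a read covers, which was 39.3 per read for HK2 in DMSO replicate 2 and 19.5 for GAPDH. Counted as conversions per 1000 T covered, HK2 (16.8) and LDHA (5.63) again led the list, and TPI1 (3.04) stood before GAPDH (2.74) and ENO1 (2.54).

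C646 was compared with DMSO to ask which mRNAs were made less or more within 2 h. T > C reads of 8 of the 10 genes were called lower (edgeR, adjusted p no higher than 0.01 and a log2 fold change of 1 or more in size) and none was called higher, while 33.0% of the 7722 genes tested were called lower and 2.97% higher. Without the limit on size, 9 of the 10 were lower at that adjusted p, against 38.0% of genes tested, and none was higher, against 3.83%. At an unadjusted p under 0.05, 1 (PGK1) was higher, and DESeq2 with size factors from all reads called none higher. Their median log2 fold change was -2.05, beside -0.83 over all genes tested. These values are scaled to all reads of a library, so less RNA per cell, fewer cells and an equal change of all mRNA cannot be told apart.

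**Figure D1:**
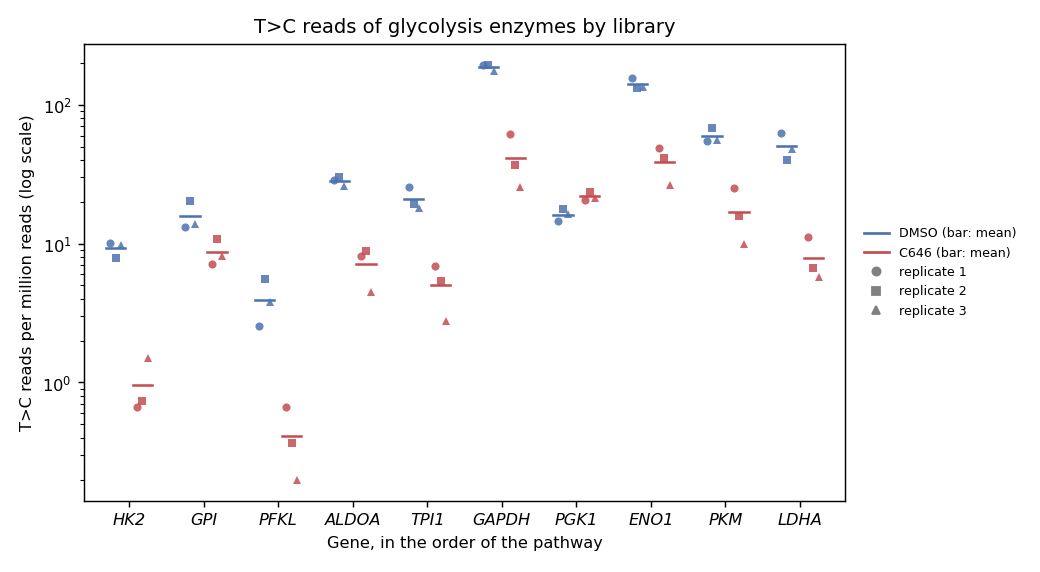
T > C reads in CPM (log axis) of the 10 glycolysis genes in each library, DMSO in blue and C646 in red, with the mean as a bar. In 9 genes every C646 library lies below every DMSO library, and in PGK1 every C646 library lies above them.

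The steepest falls were in the hexokinase and phosphofructokinase steps and in lactate dehydrogenase. HK2 had 96, 57 and 73 T > C reads in DMSO and 5, 6 and 15 in C646, that is 10.1, 7.90 and 9.83 CPM against 0.661, 0.735 and 1.49 CPM. The groups lay far apart, and C646 replicate 3 held most of the T > C reads left. The log2 fold change was -3.21 ± 0.38 (SE, adjusted p = 4.73e-08, edgeR), or 10.8% of the DMSO level. All reads of HK2 did not move with them, at 45.5, 28.0 and 53.7 CPM in DMSO and 66.7, 56.0 and 44.9 CPM in C646, with overlapping groups and a log2 fold change of 0.39 ± 0.21 (adjusted p = 0.178). Of the reads on HK2, 19.4% were multimapped, that is, they also fit elsewhere in the genome, so the level of HK2 is less certain than that of the other genes.

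PFKL, the liver-type subunit of phosphofructokinase, the enzyme at the main control point of the pathway, had 24, 40 and 28 T > C reads in DMSO and 5, 3 and 2 in C646. The groups did not overlap, but the C646 values rest on few reads. The log2 fold change was -3.27 ± 0.59 (adjusted p = 3.52e-05). LDHA had 62.3, 40.2 and 48.3 CPM of T > C reads in DMSO and 11.1, 6.62 and 5.75 CPM in C646, a log2 fold change of -2.70 ± 0.23 (adjusted p = 6.50e-11). The lowest DMSO library of LDHA thus stood far above the highest C646 library.

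GAPDH, the oxidoreductase that yields the NADH of the pathway, had 192, 194 and 175 CPM of T > C reads in DMSO and 61.5, 36.9 and 25.7 CPM in C646. The log2 fold change was -2.18 ± 0.20 (adjusted p = 2.87e-10). TPI1, which interconverts the triose phosphates, fell by 2.09 ± 0.27 on the log2 scale (adjusted p = 1.82e-07), from 21.0 ± 4.04 to 5.02 ± 2.08 CPM (SD, n = 3). The 3′ UTR of TPI1 overlaps that of SPSB2 on the other strand. ALDOA, the aldolase, fell by 2.00 ± 0.23 (adjusted p = 3.28e-08), from 28.4 ± 2.22 to 7.16 ± 2.36 CPM. ENO1, the enolase, and PKM, the pyruvate kinase, fell by 1.87 ± 0.17 (adjusted p = 5.75e-10) and 1.82 ± 0.22 (adjusted p = 7.36e-08). In all of these genes the DMSO and C646 libraries were fully separate.

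GPI and PGK1 departed from the others. GPI, the phosphoglucose isomerase, had 13.1, 20.1 and 13.9 CPM of T > C reads in DMSO and 7.14, 10.8 and 8.13 CPM in C646. The groups did not overlap, and GPI passed the adjusted p (0.00371) with a log2 fold change of -0.85 ± 0.24, close to the median of all genes tested and short of the limit on size. It lost that adjusted p without DMSO replicate 2 (0.0498), C646 replicate 1 (0.0199) or C646 replicate 3 (0.0103) and when scaled to all filtered reads (0.0331), which takes the 9 genes lower at the adjusted p to 8. PGK1, the first ATP-yielding kinase of the pathway, had 14.5, 17.7 and 16.3 CPM in DMSO and 20.8, 23.7 and 21.2 CPM in C646. Every C646 library was above every DMSO library, and the log2 fold change was 0.44 ± 0.19 (adjusted p = 0.0560), which did not pass. Scaled to all filtered reads it was 0.64 and passed the adjusted p (0.00903). Of the reads on PGK1, 5.20% were multimapped.

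Both genes depend on the scale. When T > C reads were scaled to each other by TMM instead of to all reads, the log2 fold changes of all genes shifted by 0.83, PGK1 was called higher (1.27, adjusted p = 5.02e-06) and GPI stood at -0.01, while HK2, PFKL, ALDOA, TPI1, GAPDH, ENO1 and LDHA were still called lower and PKM (-0.98) did not reach the limit on size. On that scale 7 of the 10 were called lower and 1 higher, against 7.94% and 9.05% of all genes tested. Over all genes tested, 55.8% had C646 libraries that all lay below the DMSO libraries in CPM of T > C reads, as 9 of the 10 here did, and 6.46% had them all above, as PGK1 did. PGK1 made up 2.60, 3.32 and 3.25% of the T > C reads of the 10 genes in DMSO and 10.9, 15.8 and 20% in C646. Over the same libraries the T > C reads of the 10 genes together went from a mean of 4295 to 1245, so this share is a description of both changes.

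**Figure D2:**
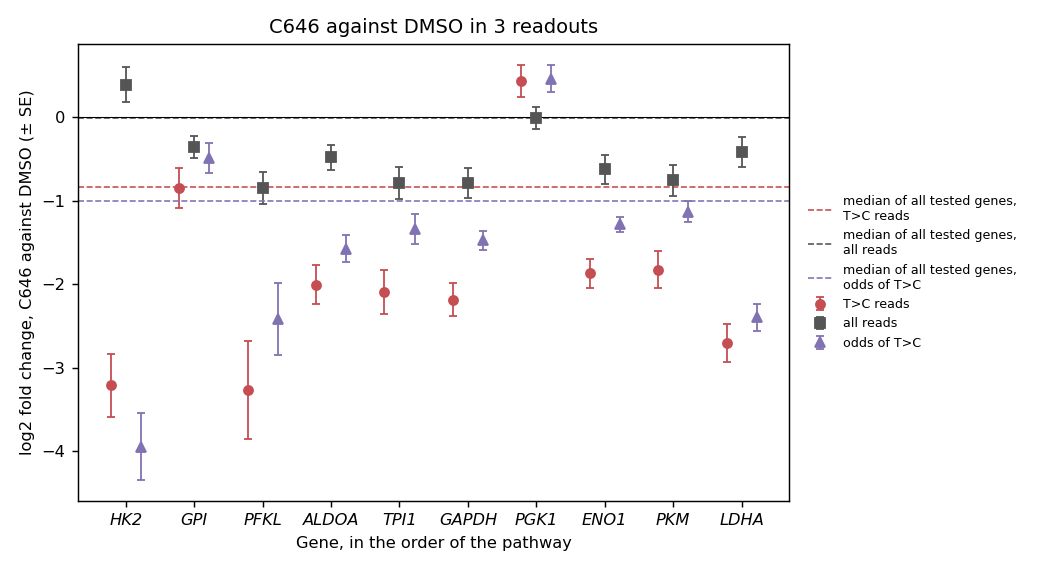
log2 fold change, C646 against DMSO, of T > C reads (circles), all reads (squares) and the odds that a read is T > C (triangles) for the 10 glycolysis genes, with SE as bars. Dashed lines are the medians of all genes tested (-0.83, -0.0030 and -1.004). T > C reads lie below their line in 9 genes, though GPI only by less than its SE, and above it in PGK1.

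The odds that a read of a gene was T > C need no scaling between libraries. They were called lower for 8 of the 10 genes and higher for none, against 38.3% and 0.79% of genes tested, with a median log2 fold change of -1.40 beside -1.004 over all genes. At the adjusted p alone, whatever the size, 8 were lower and none higher, against 44.8% and 1.14% of genes. PGK1 was higher at an unadjusted p under 0.05, for which no share of all genes was counted. HK2 fell most in the odds (-3.94 ± 0.40, adjusted p = 3.56e-08), followed by PFKL (-2.42 ± 0.43, adjusted p = 5.78e-05) and LDHA (-2.39 ± 0.16, adjusted p = 2.71e-11). GPI (-0.49 ± 0.18, adjusted p = 0.0220) and PGK1 (0.46 ± 0.16, adjusted p = 0.0164) did not pass.

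In percent of reads, HK2 went from 22.9% to 0.992, 1.31 and 3.31% in the C646 libraries, and LDHA from 7.63% to 1.92, 1.36 and 1.35%. Both had led the 10 genes in DMSO, and in C646 LDHA (1.54% ± 0.325) lay among GAPDH (1.49% ± 0.306), TPI1 (1.60% ± 0.223) and ENO1 (1.64% ± 0.0745). PGK1 had 2.62, 3.65 and 3.54% in DMSO and 4.28, 4.83 and 4.09% in C646, and so became the gene with the highest mean share of the 10. The C646 shares were below all DMSO shares in 9 genes, against 64.5% of genes tested, and above them in PGK1, against 2.18%. As conversions per 1000 T covered, PGK1 had 1.3999 to 2.05 in DMSO and 1.95 to 2.73 in C646, so its groups overlapped. The other 9 genes stayed separate, but the share of all genes that did so in this measure was not counted. The T positions covered per read were lower without overlap in C646 for GPI, PFKL, ALDOA and PKM, by 3.59 to 10.6% of the DMSO mean. Their part in the share was not tested, and how many of all genes did the same was not counted.

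The conversions counted on a gene were also divided by its T > C reads. This ratio fell below 1 for GAPDH in C646 replicates 1 and 3 (0.951 and 0.907), so it is a ratio of 2 deposited counts and not the number of conversions within such reads. HK2 had ratios of 2.70, 2.72 and 3.34 in DMSO and 1.4, 1.67 and 1.00 in C646, the latter on 5, 6 and 15 T > C reads. LDHA had 2.60, 2.54 and 2.67 in DMSO and 1.31, 1.28 and 2.48 in C646, where replicate 3 stood close to the DMSO libraries. PGK1 had 2.09 ± 0.159 in DMSO and 2.06 ± 0.192 in C646 (SD, n = 3), with overlapping libraries. PFKL had 1.00 in every C646 library, on 2 to 5 T > C reads. In 7 of the 10 genes all C646 ratios were below the DMSO ratios, against 25.3% of genes tested.

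Total mRNA moved less. In all reads none of the 10 genes was called lower or higher, against 1.88% and 5.89% of the 10851 genes tested. PFKL (-0.84 ± 0.19, adjusted p = 0.00482), GAPDH (-0.79 ± 0.18, adjusted p = 0.00452), TPI1 (-0.78 ± 0.19, adjusted p = 0.00661) and PKM (-0.75 ± 0.19, adjusted p = 0.00772) were lower at an adjusted p of 0.01, which 6.28% of genes were, and none was higher at it, against 9.81%. At an unadjusted p under 0.05, 8 of the 10 were lower and none higher, and DESeq2 called none either way. The share of all genes tested at that unadjusted p was not counted, so the 8 cannot be set against it. The count of 4 at the adjusted p depends on single libraries and on the method. It was 0 without DMSO replicate 1, DMSO replicate 2 or C646 replicate 2, it was 2 without DMSO replicate 3 or C646 replicate 3, and it was 0 when reads were scaled to every read that passed the aligner's filters, also off the 3′ UTRs. With the replicate number as a block or with no filter it was 6, and with DESeq2 it was 5. The share of all genes lower at the adjusted p was not counted in these other fits.

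The others gave smaller values that did not pass. ENO1 had a log2 fold change of -0.62 ± 0.17 (adjusted p = 0.0130), ALDOA of -0.48 ± 0.15, LDHA of -0.42 ± 0.18 and GPI of -0.35 ± 0.13. PGK1 stood at -0.0069 ± 0.13 (adjusted p = 0.972), with a 95% interval from -0.26 to 0.24. The median of the 10 was -0.55, beside -0.0030 over all genes tested, and C646 libraries lay below all DMSO libraries in 7 of the 10 genes, against 23.1% of genes tested.

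GAPDH served the study as the internal control of its RT-qPCR, where inhibitor treatment lasted longer than the 2 h here and another cell line was used too. In these libraries GAPDH had 4692, 5098 and 4287 CPM of all reads in DMSO and 3351, 2915 and 1893 CPM in C646. C646 replicate 3 was the lowest C646 library for 9 of the 10 genes and the highest for PGK1 (485, 490 and 519 CPM in C646). Together the 10 genes took up 1.10, 0.932 and 0.680% of all reads in C646 replicates 1, 2 and 3, each below the 1.35 to 1.48% of the DMSO libraries. Without C646 replicate 3 the median of the 10 was -0.40 in all reads and -1.76 in T > C reads, with 8 of 10 still called lower in T > C reads.

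**Figure D3:**
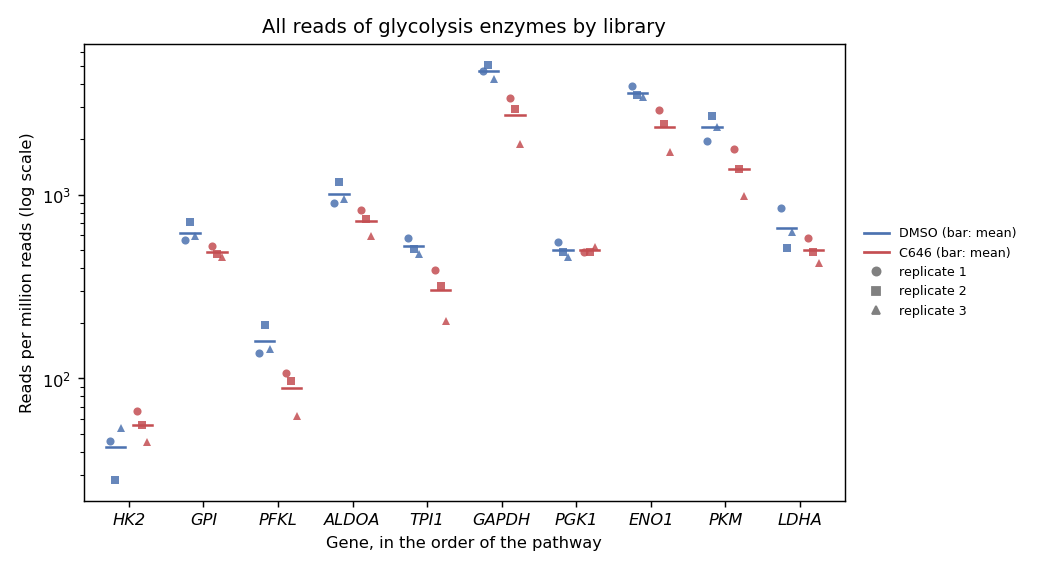
All reads in CPM (log axis) of the 10 glycolysis genes in each library, DMSO in blue and C646 in red, with the mean as a bar and the replicate given by the marker. C646 replicate 3 (red triangles) is the lowest C646 library in 9 genes, while for HK2, PGK1 and LDHA the groups overlap.

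For the 4 genes lower in all reads at the adjusted p, the size of that fall is set beside the T > C share of DMSO. GAPDH lay 42.0% below DMSO in all reads with a T > C share of 3.99%, PKM 40.6% below with 2.57%, TPI1 41.9% below with 3.99%, and PFKL 44.2% below with 2.43%. What links both values was not tested.

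The cells held the usual companions of these enzymes in part. Of 17 counterpart isozymes, 5 were tested in T > C reads, 3 of which were called lower and none higher, against 33.0% and 2.97% of all genes tested. HK1, the housekeeping hexokinase, fell by 2.74 ± 0.66 (adjusted p = 0.000885), from 15 to 21 T > C reads per library in DMSO to 1 to 4 in C646. PFKP, the platelet-type phosphofructokinase, fell by 2.76 ± 0.39 (adjusted p = 9.25e-07), so that both genes of each of these steps that were tested were lower. Under TMM on the T > C reads PFKP was still called lower (-1.93, adjusted p = 0.000362), but HK1 was not (-1.92, adjusted p = 0.0279). PGAM1, the mutase between PGK1 and ENO1, fell by 1.64 ± 0.23 (adjusted p = 9.42e-07), but 96.0% of its reads were multimapped. LDHB, the heart-type subunit of lactate dehydrogenase, was lower at the adjusted p (1.83e-05) with a log2 fold change of -0.98 ± 0.17, beside the -2.70 of LDHA, and ALDOC stood at 0.32 ± 0.57 (adjusted p = 0.655). In all reads LDHB did not pass (0.02, adjusted p = 0.918). PGK2, PKLR, LDHC, HKDC1, GAPDHS and PGAM2 had 0 reads in every DMSO library, and HK3 had at most 2.

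A set of 7 lists of genes around the pathway, isozymes included, gave 85 tested genes, of which 34 were called lower and 4 higher in T > C reads, with a median of -0.92, beside 33.0% and 2.97% of all genes tested and their median of -0.83. Under TMM on the T > C reads these counts were 9 and 7, beside 7.94% and 9.05% of all genes tested on that scale. Those called lower were 1 isozyme, 2 genes of transport and control, 1 of the pentose phosphate pathway, 2 of pyruvate entry, 1 of the side branches, 2 factors and 0 hypoxia targets. The 7 called higher on that scale were MINPP1, TALDO1, FOXK1, VEGFA, P4HA1, DDIT4 and ADM. Of the genes named below, TXNIP (0.60, adjusted p = 0.00148), PFKFB3 (0.15), PGD (0.55), DLD (0.36), MPC1 (0.37), GBE1 (0.16) and NDRG1 (0.63, adjusted p = 0.0209) turned from a negative to a positive value on it. Scaled to all reads, 4 of 13 transporters and control genes were called lower and 1 higher, beside 33.0% and 2.97% of all genes tested. They were SLC2A1, the glucose transporter GLUT1 (log2 fold change -1.36 ± 0.24), SLC16A3, the lactate exporter MCT4 (-2.15 ± 0.33), the phosphatase PGP (-3.33 ± 0.52) and TIGAR, which removes an activator of phosphofructokinase (-2.10 ± 0.46). The gene called higher was MINPP1 (1.87, adjusted p = 0.000728), named after its value was seen. PFKFB3, which makes that activator, had -0.68 ± 0.24 (adjusted p = 0.0192) and TXNIP, a brake on glucose uptake, -0.23 ± 0.14 (adjusted p = 0.168), while its odds were lower (-1.14, adjusted p = 7.24e-07).

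Next to glycolysis, 7 of 11 genes of the pentose phosphate pathway were called lower, TKT (-1.05 ± 0.33) and PGM2 (-2.21 ± 0.49) among them, while TALDO1 stood at 0.42 ± 0.19 (adjusted p = 0.0663, and 1.24 with adjusted p = 4.80e-06 under TMM on the T > C reads) and PGD at -0.29 ± 0.23. These 7 of 11 stand beside 33.0% of all genes tested. The count of 7 was 2 without DMSO replicate 2 or C646 replicate 2, 4 without DMSO replicate 1, DMSO replicate 3 or C646 replicate 1, and 7 without C646 replicate 3. At the entry of pyruvate into mitochondria, 4 of 11 were called lower, near the 33.0% of all genes tested. PDP2 (-3.20 ± 0.24, adjusted p = 5.24e-12) and PDP1 (-2.26 ± 0.38) encode the phosphatases that activate pyruvate dehydrogenase, and PDPR (-1.58 ± 0.36) a regulator of them, whereas the carrier subunit MPC1 had -0.45 ± 0.32 and DLD -0.47 ± 0.25. Of the glycogen and sugar side branches, 6 of 15 were called lower, also near that share, with PMM2 at -1.98, SORD at -1.75 (91.8% multimapped) and GNPDA1 at -1.35, while GBE1 had -0.67 (adjusted p = 0.0318).

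**Figure D4:**
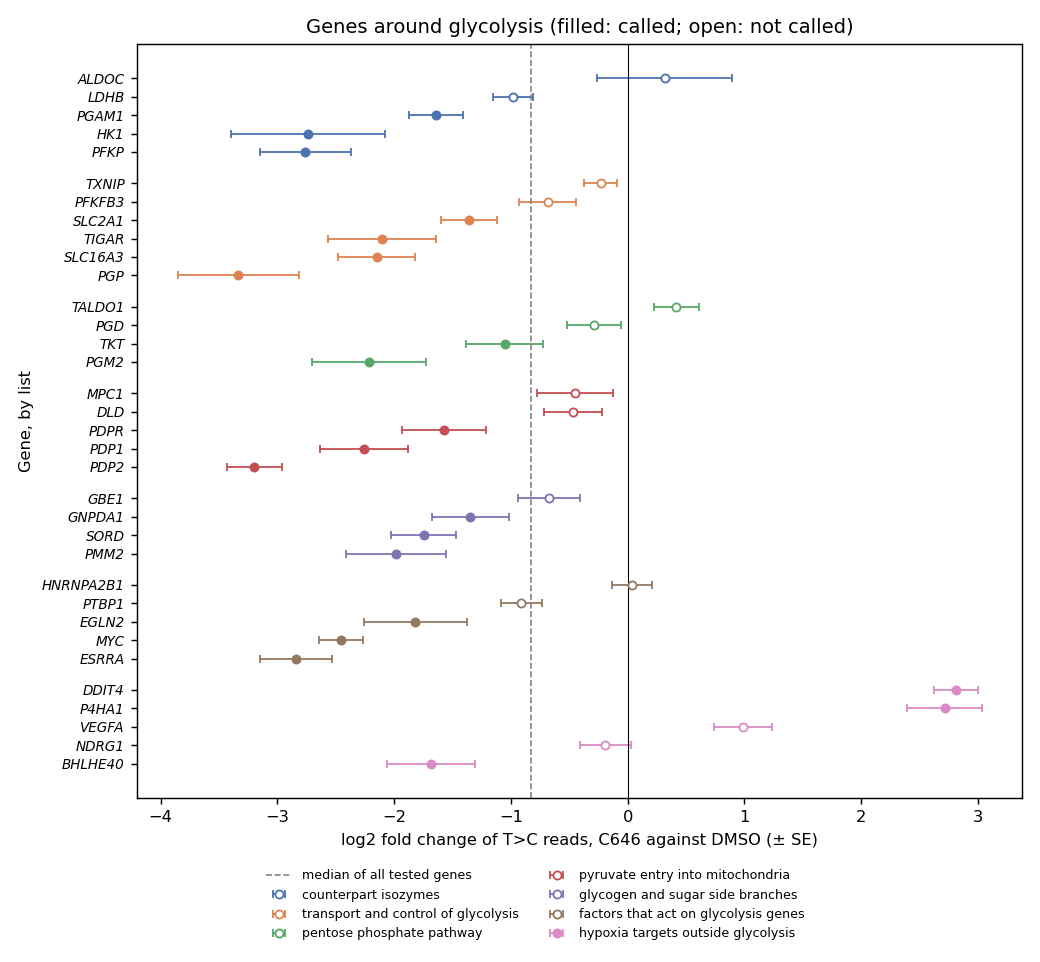
log2 fold change of T > C reads, C646 against DMSO, with SE as bars, for named genes of the 7 lists around glycolysis, filled where called and open where not. The dashed line is the median of all genes tested (-0.83), and the 2 filled genes to the right of 0 are DDIT4 and P4HA1.

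Of the factors known to act on glycolysis genes, 6 of 17 were called lower, close to the 33.0% of all genes tested. MYC fell by 2.46 ± 0.19 (adjusted p = 7.04e-12), from 85.5 ± 19.3 to 15.5 ± 1.88 CPM of T > C reads (SD, n = 3), and its all reads fell too (-1.71, adjusted p = 2.32e-05). ESRRA fell by 2.84 ± 0.31 and EGLN2, a prolyl hydroxylase of hypoxia-inducible factors, by 1.82 ± 0.44. PTBP1, a splicing factor of PKM, had -0.91 ± 0.17 (adjusted p = 6.50e-05), short of the limit on size, and HNRNPA2B1 0.04 ± 0.17. Hypoxia targets outside glycolysis were mixed, with 4 of 13 called lower and 3 higher, against 33.0% and 2.97% of all genes tested. DDIT4 (2.82 ± 0.19, adjusted p = 3.90e-13), P4HA1 (2.72 ± 0.32, adjusted p = 5.10e-08) and ADM, which had at most 1 T > C read in each DMSO library and 27 to 32 in C646 and was named after its value was seen, were called higher, and BHLHE40 (-1.68 ± 0.38) was called lower. VEGFA had 0.99 ± 0.25 (adjusted p = 0.00132) and NDRG1 -0.19 ± 0.22.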

How the data were processed

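The authors aligned QuantSeq 3′ reads to GRCh38 and counted them on annotated 3′ UTRs with SLAM-Dunk v0.4.1 (per the file headers). The deposited tables hold, for each 3′ UTR, raw counts of all reads, T > C reads, conversions and multimapped reads, the deposited coverage signal over T positions, and a deposited CPM column scaled by the authors' software to all filtered reads, used only to recover those totals. CPM given here use TMM-scaled totals of reads on 3′ UTRs. T > C reads with 1 conversion are taken to be included, whereas the study tested reads with at least 2. Counts were summed per gene and tested with edgeR 4.0.16 (quasi-likelihood, filterByExpr, Benjamini-Hochberg adjustment over all genes). T > C reads were scaled to TMM totals of all reads, and odds were tested with library factors. Gene names came from a table of Entrez identifiers, which matched 25310 of 25420 genes. Scripts were tested on simulated data. DESeq2 1.42.0, other scalings, filters, a replicate block and leaving out each library served as alternatives. The members and lists were chosen with earlier results of these data known. Genes named with values were the 10 enzymes, tested isozymes and, from every other list, the 3 with most T > C reads and up to 3 called with the largest change and at least 20 T > C reads averaged over the libraries. MINPP1 and ADM fall outside this rule and were named after their values were seen. Reads without molecular identifiers are not independent molecules.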

Additional observations from a re-analysis of the deposited data

How the results depend on the processing

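With TMM on the T > C reads, 7 of the 10 enzymes were called lower and 1 (PGK1) higher, with a median log2 fold change of -1.20, and DESeq2 with size factors from T > C reads gave 7, 1 and -1.19. The lists around glycolysis then had 9 genes called lower and 7 higher in place of 34 and 4. Of all genes tested, 7.94% were called lower and 9.05% higher under TMM on the T > C reads. Scaling to all filtered reads gave a median of -0.35 in all reads, with 0 enzymes lower at the adjusted p, and turned PGK1 from -0.0069 to 0.20 (adjusted p = 0.274). With each library left out in turn, the median in T > C reads ranged from -2.29 to -1.76 with 8 or 9 enzymes called lower, the median in all reads from -0.69 to -0.40, the count lower in all reads from 0 to 5, PGK1 in all reads from -0.0594 to 0.0750, and the median percentile of the baseline share, which was 7.01, from 6.95 to 8.39. It was 8.50 among genes with at least 500 reads per library, where HK2 dropped out. GPI was called lower without C646 replicate 2 (-1.03), so that 9 enzymes were. The cause of these shifts was not tested. Shares of all genes tested were counted only for the main settings and for TMM on the T > C reads. A filter of at least 50 T > C reads dropped HK2 and PFKL, and entries with at most 10% multimapped reads excluded HK2, which leaves 6 and 7 called lower. Replicate numbers are shared between groups, but same-numbered libraries correlated by 0.0299 to 0.0655 in T > C reads and -0.0014 to 0.231 in all reads, not above 0.1 in every pair, so the numbers were not read as pairs. In T > C reads, though not in all reads, every library correlated best with its own number, a hint from the data and not from the design. With the replicate block, 8 enzymes were called lower in T > C reads (median -2.07) and in odds (-1.41), 6 were lower at the adjusted p in all reads (median -0.57), and the lists had 32 lower and 5 higher. Over the 10 enzymes, 148 of 157 alternative values in T > C reads, 100 of 130 in all reads and 96 of 97 in odds kept their direction and their side of the adjusted p. Counted by calls the numbers were 152, 126 and 97, but in all reads no enzyme was called to begin with. Depth limits HK2 and PFKL most, at 2 to 15 T > C reads per C646 library.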
